A study of Mus musculus with 7 samples.

Results

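The 10 genes described here are the heat shock factors Hsf1 and Hsf2, the cytosolic HSP90 genes Hsp90aa1 and Hsp90ab1, and 6 cochaperones that work with HSP90, namely Stip1, Cdc37, Ahsa1, Ptges3, Fkbp4 and Chordc1. They were found among the 55487 genes of the count table by their gene symbol in GENCODE release M21, and all 10 passed the filter on low counts. RNA came from the cervical spinal cord of mice at 8 weeks of age. The Neat1-KO; hSOD1G93A group held 4 libraries, numbered 1 to 4, and the Neat1-WT; hSOD1G93A group held 3, numbered 2 to 4. Neat1-KO animals lack Neat1, a long non-coding RNA that builds the nuclear bodies called paraspeckles. Both groups carry the mutant human SOD1 transgene hSOD1G93A, a model of amyotrophic lateral sclerosis, so no library came from an animal without the transgene. The labels do not give the sex of the animals. The study used both sexes, without stating that of these libraries. They do not say whether a library is 1 animal, so p-values measure the spread between these libraries.

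HSF1 is the main transcription factor of the heat shock response. It is held inactive in unstressed cells, in part by HSP90 itself, and under protein stress it forms trimers that bind inverted repeats of GAA in the promoters of chaperone genes. HSP90 is an ATP-driven dimer that finishes the folding of kinases, steroid receptors and many other client proteins. Its cochaperones hand over clients, set the pace of the ATPase or stabilise one conformation. Hsp90aa1 encodes the form that heat induces, and Hsp90ab1 the form that cells make all the time.

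The longest coding transcripts of the 2 HSP90 genes were 76.1% identical over 2171 aligned bases. Hsp90aa1 lies on chromosome 12 at 110690605 to 110702728 and Hsp90ab1 on chromosome 17 at 45567775 to 45573271, both on the minus strand of GRCm38. The last 36 coding bases are shown because they encode the shared tail by which HSP90 docks cochaperones with TPR domains, such as those of Stip1 and Fkbp4. Capitals mark the last 15 bases, which hold the codons of the EEVD tail and the stop codon.
Hsp90aa1: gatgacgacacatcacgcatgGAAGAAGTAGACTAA
Hsp90ab1: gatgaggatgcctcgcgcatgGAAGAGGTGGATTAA
The 2 sequences shared 28 of these 36 bases, and 12 of the 15 in capitals.

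Promoter sequences from RefSeq (GRCm38.p6) were matched for 7 of the 10 genes, each from 250 bases before to 50 after the start. They were Hsf2, Stip1, Cdc37, Ahsa1, Ptges3, Fkbp4 and Chordc1. Both strands were searched for the heat shock element as 3 alternating units, GAANNTTCNNGAA or TTCNNGAANNTTC, and for the shorter form of 2 units, GAANNTTC or TTCNNGAA, which every longer match contains. Of 32851 promoters of this length, 0.603% held the 3-unit form and 15.1% the 2-unit form. Chordc1 alone of the 7 held the 3-unit form, in 3 overlapping matches that ran over 23 bases from 4 bases before the RefSeq start to 19 past it. Cdc37 and Fkbp4 held 1 match each to the 2-unit form. The Chordc1 promoter is shown from chr9:18292147-18292291 on the plus strand, the Cdc37 match with its surroundings from chr9:21150067-21150134 and the Fkbp4 match from chr6:128438770-128438837, both on the minus strand, with the matched bases in capitals.
Chordc1: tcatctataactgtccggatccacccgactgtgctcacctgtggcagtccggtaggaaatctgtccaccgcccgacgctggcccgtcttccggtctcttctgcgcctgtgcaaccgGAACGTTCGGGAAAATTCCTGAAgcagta
Cdc37: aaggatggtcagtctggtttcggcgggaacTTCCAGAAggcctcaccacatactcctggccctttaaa
Fkbp4: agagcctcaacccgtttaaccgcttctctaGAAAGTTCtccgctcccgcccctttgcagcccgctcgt
The RefSeq start of Chordc1 lies 142 bases downstream of the start of the GENCODE gene. A match in letters describes the sequence and does not show binding.

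The libraries held 19661878 to 26031517 counted reads, and mitochondrial genes took 3.69% to 5.24% of them. Neat1 stood at 4.04 to 5.52 CPM, counts scaled to the size of the library, in the Neat1-KO libraries and at 80.5 to 118 CPM in the Neat1-WT libraries, a log2 fold change of -4.25 ± 0.15 (SE; edgeR adjusted p = 1.52e-08). The 8 neuronal markers of the tissue summed to 4483 to 5312 CPM over the 7 libraries. The 6 markers of motor neurons summed to 278 to 338 CPM in Neat1-KO and 360 to 428 CPM in Neat1-WT, without overlap, and none of the 6 was called; their part in the results was not tested. In bulk tissue, fewer cells of a type and less RNA per cell cannot be told apart. The 5 markers of meninges, the connective tissue around the cord, varied between libraries within each genotype. They summed to 82.6, 224, 182 and 167 CPM in Neat1-KO and to 72.5, 117 and 239 CPM in Neat1-WT, highest in Neat1-KO replicate 2 and Neat1-WT replicate 4. Xist, an RNA of female cells, had at most 4 counts in any library, so no library showed female tissue by this marker.

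None of the 10 genes was called between the genotypes by edgeR's quasi-likelihood test, with the thresholds of an adjusted p below 0.1 and a log2 fold change beyond 0.58 in size. Of the 18449 genes tested, 6 were called (0.0325%). DESeq2 and limma-voom called 0 of the 10 as well. At an unadjusted p under 0.05, 2 of the 10 passed, Hsp90aa1 and Chordc1, both lower in Neat1-KO, against 4.64% of all genes in either direction and 2.4% on the lower side. For 1 of the 10, Hsp90ab1, no Neat1-KO library reached the range of Neat1-WT; it was lower in Neat1-KO, against 5.47% of all genes in either direction and 2.57% on the lower side. The fitted log2 fold change was below 0 for 10 of 10 genes, against 48.2% of all genes tested, and its median over the 10 was -0.14 against 0.0062 over all genes. The genes share libraries and vary together, so this count is a description of the 10 and no test of them. Markers of some other cells of the cord also lay below 0, and those of others did not. For oligodendrocytes 6 of 6 markers lay below 0, with a median of -0.14, none called and 1, Mobp, without overlap of the libraries. They summed to 33417 to 36229 CPM in Neat1-KO and 34827 to 42685 CPM in Neat1-WT, and none was at 0 in any library. For motor neurons 6 of 6 markers lay below 0, with a median of -0.25. Of the 8 neuronal markers 5 lay below 0, with a median of -0.033, and of the 6 of astrocytes 4, with a median of -0.0089. Microglia and meninges went the other way. Of the 6 markers of microglia 5 lay above 0, with a median of 0.052, and of the 5 of meninges 5, with a median of 0.21. For endothelium 3 markers lay below 0 and 2 above, with a median of -0.013. The part of these cells in the values of the 10 genes was not tested.

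**Figure D1:**
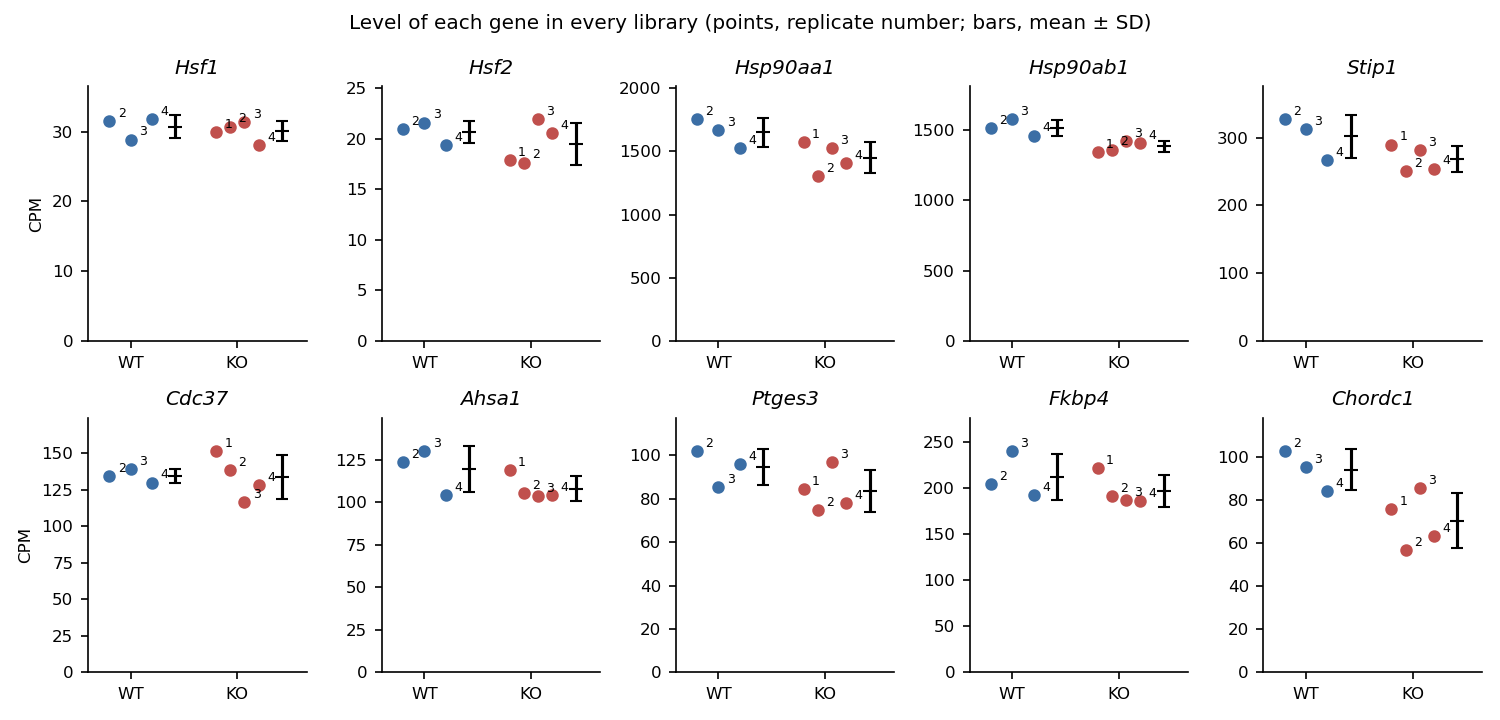
Level in CPM (counts scaled to library size, linear axis from 0) of each of the 10 genes in the 3 Neat1-WT libraries (blue) and the 4 Neat1-KO libraries (red), with the replicate number beside each point and the mean ± SD as a bar. Hsp90ab1 is the gene whose genotypes do not overlap, with Neat1-KO at 1344 to 1422 CPM and Neat1-WT at 1461 to 1577 CPM.

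The transcription factors came first in the comparison. Hsf1, the factor that heat activates, stood at 29.9, 30.7, 31.4 and 28.1 CPM in the Neat1-KO libraries (replicates 1 to 4) and at 31.5, 28.9 and 31.8 CPM in the Neat1-WT ones (replicates 2 to 4). The ranges of the genotypes overlapped, and the log2 fold change was -0.032 (95% interval -0.21 to 0.15). Hsf1 was the steadiest of the 10, with a coefficient of variation of 4.68% over the 7 libraries. Since HSF1 is controlled mainly at the protein level, its mRNA does not measure its activity. Hsf2, a second heat shock factor with roles in development and under proteasome stress, stood at 17.9, 17.7, 21.9 and 20.6 CPM in Neat1-KO and at 21, 21.6 and 19.4 CPM in Neat1-WT. Its highest value and its lowest both fell among the Neat1-KO libraries, and its log2 fold change was -0.083 (95% interval -0.31 to 0.14).

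The heat-inducible gene Hsp90aa1 stood at 1573, 1303, 1526 and 1405 CPM in the Neat1-KO libraries (replicates 1 to 4) and at 1755, 1671 and 1529 CPM in the Neat1-WT ones (replicates 2 to 4). The means were 1452 ± 122 (SD, n = 4) and 1652 ± 114 CPM (SD, n = 3), and 1 Neat1-KO library, replicate 1, lay above the lowest Neat1-WT library. The log2 fold change was -0.19 ± 0.079 (SE; 95% interval -0.36 to -0.015), with an unadjusted edgeR p of 0.035 and an adjusted p of 0.992. The exact two-sided permutation test over the 35 assignments of the libraries gave p = 0.114.

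The constitutive gene Hsp90ab1 stood at 1344, 1361, 1422 and 1409 CPM in Neat1-KO and at 1513, 1577 and 1461 CPM in Neat1-WT. The means were 1384 ± 37.4 (SD, n = 4) and 1517 ± 58.3 CPM (SD, n = 3), and every Neat1-KO library lay below every Neat1-WT library. The log2 fold change was -0.13 ± 0.061 (SE; 95% interval -0.26 to 8.5e-05; edgeR adjusted p = 0.992), and the exact permutation p was 0.0286, the smallest that 35 assignments can give. It was not adjusted for the 10 genes looked at.

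The HSP90 genes were then compared within each library, where library scaling cancels. The ratio of Hsp90aa1 to Hsp90ab1 in CPM was 1.17, 0.957, 1.07 and 0.997 in Neat1-KO replicates 1 to 4 and 1.16, 1.06 and 1.05 in Neat1-WT replicates 2 to 4. The ranges overlapped, and the highest and the lowest ratio were both in Neat1-KO. The difference in mean log2 ratio, Neat1-KO minus Neat1-WT, was -0.056 (95% interval -0.27 to 0.16; exact permutation p = 0.6, adjusted over 7 ratios p = 0.7). A change of the ratio of the size of either bound was therefore within the error of these libraries. Between genes, levels are compared per length. Per kilobase of merged exons, Hsp90ab1 was above Hsp90aa1 in 7 of 7 libraries, with means of 480.5 and 391 CPM per kb.

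The 6 cochaperones divided by how far their libraries lay apart. Chordc1, which encodes a zinc-binding HSP90 partner also called CHP-1 or morgana, had the largest fold change of the 10. It stood at 76.1, 57.0, 85.6 and 63.4 CPM in the Neat1-KO libraries (replicates 1 to 4) and at 103, 95.6 and 84.4 CPM in the Neat1-WT ones (replicates 2 to 4). The means were 70.5 ± 12.8 (SD, n = 4) and 94.4 ± 9.42 CPM (SD, n = 3), and the genotypes overlapped only in Neat1-KO replicate 3, which lay just above Neat1-WT replicate 4. The log2 fold change was -0.42 ± 0.13 (SE; 95% interval -0.69 to -0.15), with an unadjusted edgeR p of 0.0053, an adjusted p of 0.84 and an exact permutation p of 0.0857. Over the other fits the adjusted p of Chordc1 ran from 0.00117, when genes with low counts were kept in, to 1, and the fold change stayed under the minimum in each of them.

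Stip1, also called HOP, bridges HSP70 and HSP90 and passes clients between them. It stood at 290, 251, 281 and 254 CPM in Neat1-KO and at 327, 313 and 267 CPM in Neat1-WT, a log2 fold change of -0.17 (95% interval -0.35 to 0.015). Neat1-WT replicate 4 lay among the Neat1-KO libraries. Stip1 lies on chromosome 19, as Neat1 does, with 1175224 bp between the genes.

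Ahsa1 encodes the cochaperone AHA1, which speeds up the ATPase of HSP90. It stood at 119, 105, 104 and 104 CPM in Neat1-KO and at 124, 130 and 104 CPM in Neat1-WT, a log2 fold change of -0.14 (95% interval -0.34 to 0.047). In each genotype 1 library stood away from the rest and into the other genotype's range, Neat1-KO replicate 1 upwards and Neat1-WT replicate 4 downwards. Fkbp4, the immunophilin FKBP52 of steroid receptor complexes, had the same high library in Neat1-KO. It stood at 222, 191, 187 and 186 CPM in Neat1-KO and at 204, 241 and 193 CPM in Neat1-WT, a log2 fold change of -0.11 (95% interval -0.31 to 0.085).

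Ptges3 encodes p23, which stabilises the closed, ATP-bound form of HSP90. It stood at 84.3, 74.9, 97.1 and 78.1 CPM in Neat1-KO and at 102, 85.5 and 96.0 CPM in Neat1-WT, a log2 fold change of -0.18 (95% interval -0.39 to 0.034). The value is uncertain, because a processed pseudogene on chromosome 6, Ptges3-ps, is 100% identical to Ptges3 over its 480 bases and took 23.7% to 37.5% of the reads counted for the pair. Summed, the pair stood at 117 ± 9.83 (SD, n = 4) in the knockout against 133 ± 5.45 CPM (SD, n = 3), a difference in mean log2 of -0.19 (exact permutation p = 0.0857). Among the near-identical copies of Hsp90aa1, the one with most counts, Gm12346, took 0.989% to 1.26% of the reads of its pair. Hsf1, Hsf2, Stip1, Cdc37, Fkbp4 and Chordc1 had no copy of at least 90% identity over 50% of its length.

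Cdc37 encodes the cochaperone that brings kinases to HSP90. It stood at 152, 138, 117 and 128 CPM in Neat1-KO and at 134, 139 and 130 CPM in Neat1-WT. Both ends of its range were Neat1-KO libraries, and its log2 fold change of -0.008 (95% interval -0.20 to 0.18) turned to 0.051 without Neat1-KO replicate 3, to 0.013 without Neat1-KO replicate 4 and to 0.017 without Neat1-WT replicate 3.

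**Figure D2:**
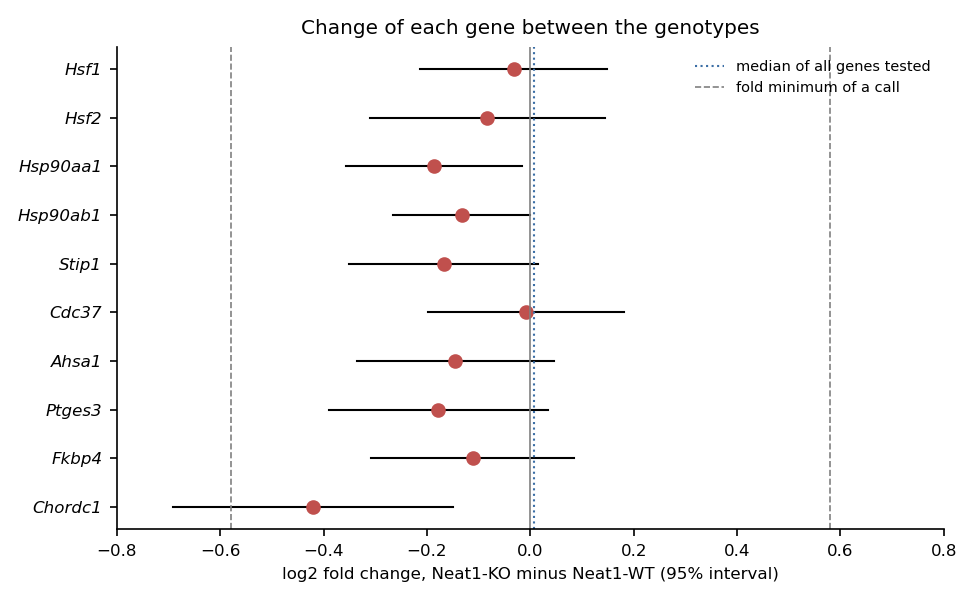
Log2 fold change of each gene, Neat1-KO minus Neat1-WT, with its 95% interval from the edgeR fit. The dashed lines mark the minimum of 0.58 for a call and the dotted line the median of all genes tested; the intervals of Hsp90aa1 and Chordc1 lie below 0, and no estimate reaches the dashed lines.

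By level per kilobase of merged exons, the order was Hsp90ab1, Hsp90aa1, Stip1 (134 CPM per kb), Fkbp4 (72.8), Ptges3 (39.8), Ahsa1 (25.8), Cdc37 (16.4), Chordc1 (10.8), Hsf1 (4.27) and Hsf2 (2.08). Each gene stood above the next in 7 of 7 libraries, and the ranges of neighbours did not overlap. With the longest transcript as the length, Ahsa1 moved above Ptges3, at 50.1 and 44.1 CPM per kb. The HSP90 genes were also among the most abundant genes by CPM, both at the 99.8 percentile of the genes tested.

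The ratio of Hsp90aa1 to each cochaperone was compared next, in 6 further ratios of the same family. The ratio to Chordc1 was 20.7, 22.9, 17.8 and 22.2 in Neat1-KO replicates 1 to 4 and 17, 17.5 and 18.1 in Neat1-WT replicates 2 to 4. It lay higher in 3 of 4 Neat1-KO libraries than in any Neat1-WT library. The difference in mean log2 ratio was 0.24 (95% interval -0.0052 to 0.50; exact permutation p = 0.0857, adjusted over 7 ratios p = 0.6).

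The ratio to Stip1 held within a narrow band, at 5.43, 5.20, 5.43 and 5.52 in Neat1-KO and 5.36, 5.35 and 5.74 in Neat1-WT. Its difference was -0.023 on the log2 scale (95% interval -0.11 to 0.069; exact permutation p = 0.6, adjusted p = 0.7), the narrowest interval of the 7. The differences of the ratios to Ahsa1, Ptges3 and Fkbp4 were -0.047, -0.007 and -0.079 on the log2 scale, each with an interval that held 0 and an adjusted p of at least 0.7. The ratio to Cdc37 had the widest interval, with a difference of -0.17 (95% interval -0.49 to 0.14; exact permutation p = 0.229, adjusted p = 0.7). Against the mean of the 6 cochaperones, the ratio of Hsp90aa1 differed by -0.014 on the log2 scale (95% interval -0.092 to 0.063). None of the 7 ratios differed past the threshold, and their intervals, other than that to Stip1, still allow differences of over 0.15 in log2.

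**Figure D3:**
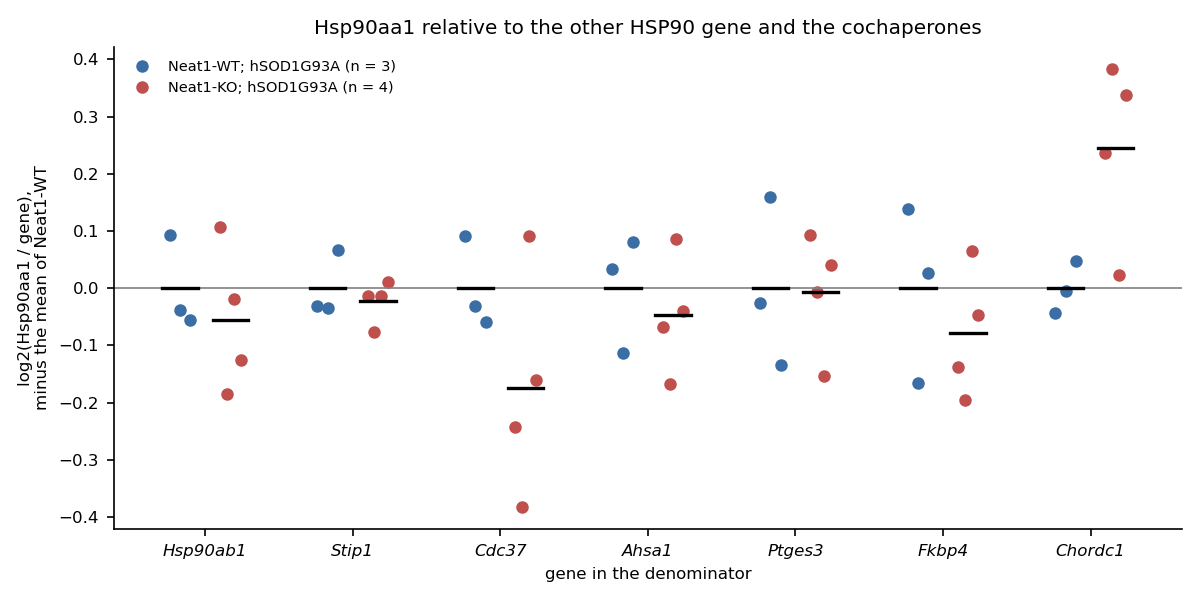
Log2 ratio of Hsp90aa1 to the other HSP90 gene and to each of the 6 cochaperones in every library, set to the Neat1-WT mean of that ratio; black lines are the means of 3 Neat1-WT and 4 Neat1-KO libraries. The ratio to Stip1 has the least spread, and 3 of 4 Neat1-KO libraries lie above all Neat1-WT libraries in the ratio to Chordc1.

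Across the 7 libraries, the level of Hsp90aa1 ran with those of Stip1 and Chordc1. Of the 9 correlations with the other genes, on log2 CPM, these 2 passed adjustment for Pearson r. For Spearman rho, only Stip1 did. Stip1 gave Pearson r = 0.953 (exact permutation p = 0.0014, adjusted p = 0.0071) and Spearman rho = 0.964 (exact permutation p = 0.0028, adjusted p = 0.025). Without the 2 libraries farthest from the median of Hsp90aa1, Neat1-KO replicate 2 and Neat1-WT replicate 2, r was 0.953, and after the genotype means were taken out r was 0.93. Chordc1 gave r = 0.957 (exact permutation p = 0.0016, adjusted p = 0.0071) and rho = 0.857 (exact permutation p = 0.0238, adjusted p = 0.107), r = 0.874 without those 2 libraries and r = 0.917 with the genotype means taken out.

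The other genes gave r from 0.124 for Cdc37 and 0.174 for Hsf1 to 0.766 for Ahsa1. Hsp90ab1 gave r = 0.692 (exact permutation p = 0.0847, adjusted p = 0.152) and r = 0.263 with the genotype means taken out. So within a genotype, the libraries high in the heat-inducible HSP90 gene were those high in Stip1 and Chordc1, and not in the same way those high in the constitutive gene; the difference between these correlations was not tested. By likeness to Hsp90aa1 over the 7 libraries, Chordc1 ranked 28 and Stip1 ranked 30 of all genes tested. The 5 genes most like it were Impa1 (r = 0.993), Npy5r (0.987), Ccnc (0.979), Gskip (0.979) and Ap3s1 (0.978).

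The same libraries also differed in the markers of meninges. Their log2 summed level gave r = -0.819 with Stip1 (exact permutation p = 0.0317), r = -0.743 with Hsp90aa1 (exact permutation p = 0.0563) and r = -0.536 with Chordc1 (exact permutation p = 0.216), with rho of -0.786, -0.714 and -0.50 (exact permutation p = 0.048, 0.0881 and 0.267). None passed adjustment over the 10 relations, 1 for each gene, with adjusted p of 0.159, 0.188 and 0.41 for r and 0.44, 0.44 and 0.533 for rho from the exact permutation test. Without the 2 libraries farthest from the median of the sum, Neat1-KO replicate 1 and Neat1-WT replicate 2, r was -0.774, -0.625 and -0.473. After the genotype means were taken out, r was -0.883 for Stip1, -0.839 for Hsp90aa1 and -0.574 for Chordc1, against -0.087 for Hsp90ab1. Ahsa1 gave r = -0.811 (exact permutation p = 0.0312, adjusted p = 0.159) and rho = -0.607 (exact permutation p = 0.167, adjusted p = 0.533). The part of these markers in the correlations among the genes was not tested. With the summed markers as a covariate, the log2 fold change between the genotypes was -0.15 for Hsp90aa1, -0.13 for Hsp90ab1, -0.12 for Stip1 and -0.37 for Chordc1. Without the 2 libraries highest in the sum, 0 of the 10 genes were called as well.

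**Figure D4:**
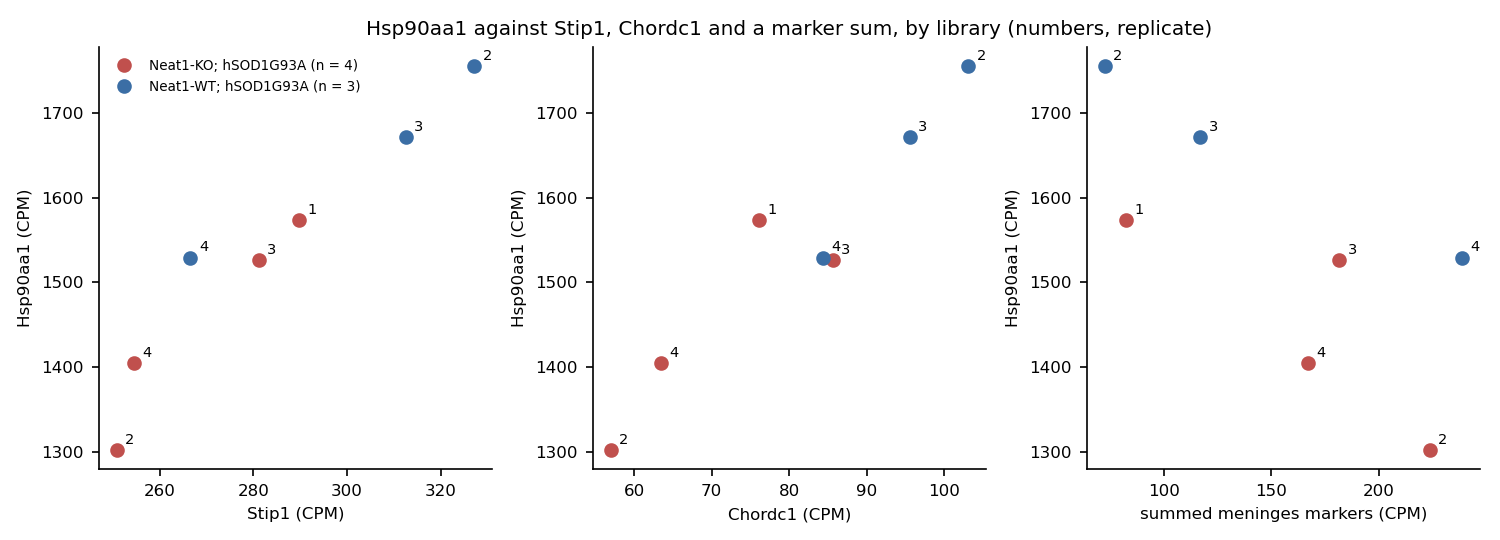
Level of Hsp90aa1 in CPM against Stip1, Chordc1 and the summed level of 5 meninges markers in CPM, 1 point per library with its replicate number, Neat1-KO in red (n = 4) and Neat1-WT in blue (n = 3); axes do not start at 0. Hsp90aa1 rises with Stip1 (r = 0.953) and Chordc1 (r = 0.957) and lies lower where the marker sum is high (r = -0.743 on the log2 scale).

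The other genes of the pathway were read from 4 lists. Of 34 further HSP90 paralogs and cochaperones, 31 were tested, 18 had a fold change below 0 and 13 above, and 0 were called by edgeR. At an unadjusted p under 0.05, 3 passed, all lower, against 2.4% of all genes on the lower side. Hsp90b1, the HSP90 of the endoplasmic reticulum, stood at 294, 281, 322 and 278 CPM in Neat1-KO and at 371, 370 and 358 CPM in Neat1-WT, without overlap, with a log2 fold change of -0.32 ± 0.069 (SE; edgeR adjusted p = 0.485). Ahsa2 and Cdc37l1, paralogs of Ahsa1 and Cdc37, had log2 fold changes of -0.22 and -0.17 with overlapping libraries. Trap1, the mitochondrial HSP90, and Fkbp5, the paralog of Fkbp4 that glucocorticoids induce, had -0.018 and -0.11. The median of the list was -0.018.

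Of 15 further HSF family genes and regulators of HSF1, 13 were tested, 7 lay below 0 and 6 above, 0 were called by edgeR and 0 passed an unadjusted p under 0.05, with a median of -0.0034. Hsf4, the factor of the lens, had a log2 fold change of 0.064. Of 23 HSP90 client proteins, 12 lay below 0 and 11 above, 0 were called by edgeR and 0 passed an unadjusted p under 0.05, with a median of -0.0069.

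The fourth list held 18 chaperone genes known as targets of HSF1, apart from the 10. Of these, 18 of 18 had a fold change below 0, 6 passed an unadjusted p under 0.05, 5 did not overlap between the genotypes and 2 were called, Hspa1b and Hspb1. Over all genes tested, 48.2% lay below 0. In either direction, 4.64% of all genes passed that p, 5.47% did not overlap and 0.0325% were called. The list had a median of -0.13, close to that of the 10 genes. The list was set with the study's own reading of these libraries known, so it is not independent evidence of its direction.

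Hspa1b, one of the heat-inducible HSP70 genes, stood at 3.19, 5.68, 4.78 and 4.35 CPM in Neat1-KO and at 9.28, 13.6 and 9.48 CPM in Neat1-WT, and fell by 1.25 on the log2 scale (edgeR adjusted p = 0.0888). Its near-identical copy Hspa1a had a log2 fold change of -0.65 without overlap of the libraries (edgeR adjusted p = 0.485, DESeq2 adjusted p = 0.036), and how reads were divided between these copies is uncertain. Hspb1, the small heat shock protein HSP27, stood at 28.7, 30.8, 31.6 and 28.3 CPM in Neat1-KO and at 45.3, 53.0 and 40.7 CPM in Neat1-WT, and fell by 0.63 (edgeR adjusted p = 0.075). Both genes were still called when replicate 1 of Neat1-KO or replicate 4 of Neat1-WT was left out. When replicate 4 of Neat1-KO or replicate 2 or 3 of Neat1-WT was left out, 0 genes of the list were called, and when replicate 2 or 3 of Neat1-KO was left out, 1 was. The difference between these fold changes and those of the HSP90 genes was not tested.

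**Figure D5:**
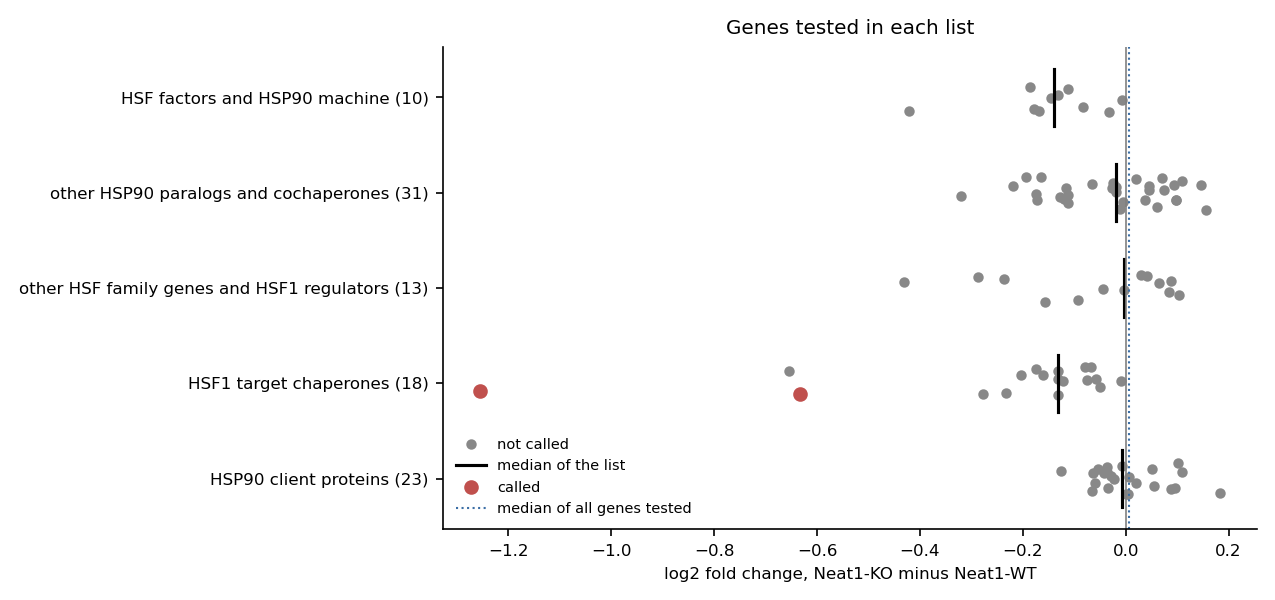
Log2 fold change, Neat1-KO minus Neat1-WT, of every tested gene in the 10 genes described and in the 4 pathway lists, with the number tested in brackets, list medians as black bars, called genes in red and the median of all genes tested as a dotted line. The medians of the 10 genes and of the HSF1 target chaperones are -0.14 and -0.13, and those of the other lists are -0.018, -0.0034 and -0.0069.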

How the data were processed

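Poly(A) RNA of 7 cervical spinal cord samples was sequenced as directional paired-end libraries on an Illumina NovaSeq instrument. The authors checked reads with FastQC 0.11.7, trimmed them with Trimmomatic 0.38, aligned them to mm10 with HISAT2 2.1.0, converted them with SAMtools 1.9 and used featureCounts 1.6.3 on uniquely mapped reads. The deposited values are raw counts per Ensembl gene. The annotation release and the strand setting are not given in the sources used here. Discarding reads that map to several places lowers genes with near-identical copies.

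Symbols and coordinates came from GENCODE M21 (GRCm38), which gave a symbol for 55227 of 55487 rows. Counts were tested with edgeR 4.0.16 in R 4.3.3 (filterByExpr, TMM factors, quasi-likelihood test of genotype, Benjamini-Hochberg adjustment over 18449 genes). The SE is the fold change divided by the root of the F statistic. CPM uses the TMM library sizes (factors 0.991 to 1.01), and library totals of 19661878 to 26031517 reads set the counting precision. Single values were compared by exact permutation over 35 assignments of the libraries. The code was tested on simulated counts. Copies were sought with BLAST 2.17.0 (at least 90% identity over at least 50% of the copy and 200 bases). Libraries of a genotype differed beyond counting noise (chi-square per gene of 8.06 to 17.7 over 9 pairs), so each counted as 1 replicate.

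The genes and lists were chosen with earlier results of these data known. Named outside the 10 were Neat1, called genes, the up to 3 largest non-overlapping changes per pathway list, paralogs, the 5 genes most like Hsp90aa1, and copies. Xist and Mobp were named after their values were seen, and 1 listed marker is not reported here. Alternatives were other scalings and filters, DESeq2 1.42.0, limma-voom (limma 3.58.1), robust dispersion, the replicate block, Xist as covariate, each library left out, other thresholds and other lengths. The fit without 2 libraries, that with the summed meninges markers as covariate and the fits with no fold minimum were added after the data were seen.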

Additional observations from a re-analysis of the deposited data

Results flagged for a closer look

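In the 4 Neat1-KO libraries, 1 library stood far from the other 3 for 3 genes, by the ratio of its gap to its nearest neighbour to the whole range of the group, which was above Dixon's critical value for 4 samples. Of 27 results examined in this way, chance gives about 1.35. Ahsa1 was at 119 CPM in Neat1-KO replicate 1 and at 105 CPM or less in the others, a gap of 0.884 of the range. Fkbp4 was at 222 CPM in the same library and at 191 CPM or less in the others, a gap of 0.852 of the range. Ahsa2, the paralog of Ahsa1, was at 56.8 CPM in Neat1-KO replicate 3 and at 48.9 CPM or less in the others, a gap of 0.882 of the range. Without Neat1-KO replicate 1, 0 of the 10 genes were called by edgeR, as with it. Groups of 3 libraries, as in Neat1-WT, were not examined.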

How the results depend on the processing

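None of the 10 genes was called in any of the 18 other fits, and 9 or 10 of them had a fold change below 0 in each. A stricter threshold of an adjusted p under 0.05, with the fold minimum kept, called none of the 10 either. With genes of low counts kept in, 124 genes of the whole table were called, none of them among the 10; without the minimum of fold change as well, 1 of the 10 passed, Chordc1, and the cause was not tested. DESeq2 called 27 genes of the table, the fit without the 2 libraries highest in meninges markers 15, and leaving out single libraries gave 3 (without Neat1-WT replicate 3) to 31 (without Neat1-KO replicate 1). Xist as a covariate, which carries at most 4 counts a library, gave 0 called HSF1 target chaperones, against 0 to 2 with single libraries left out, and turned Hsf2 to 0.0064, Hsf4 to -0.018 and the median of the client proteins to 0.027.

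Same-numbered libraries did not vary together (correlations of deviations -0.20, -0.12 and -0.015). So few pairs cannot show whether the numbers pair libraries, and the main fit used no pairing. With the replicate block, 0 of the 10 genes and 39 genes of the table were called, the log2 ratio of Hsp90aa1 to Hsp90ab1 differed by -0.11, and the median of the client proteins was 0.0086.

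Values near 0 changed sign elsewhere. With single libraries left out, Cdc37 ran from -0.076 to 0.051, Trap1 from -0.063 to 0.019, the median of the paralogs and cochaperones from -0.038 to 0.025, of the HSF regulators from -0.058 to 0.016 and of the client proteins from -0.043 to 0.013, and the difference in the log2 ratio of Hsp90aa1 ran from -0.041 to 0.0104 for Stip1 and from -0.074 to 0.073 for Ptges3. The differences of medians of these 2 ratios were 0.018 and 0.042. Cdc37 and Trap1 were 0.015 and 0.0069 with the meninges markers as covariate. The median of the HSF regulators was 0.0097 with low counts kept in and 0.0073 without the 2 libraries, and that of the client proteins 0.014 without them. With the longest transcript as length, levels moved to 9.68 CPM per kb for Hsf1, 4.42 for Hsf2, 468.6 for Hsp90aa1, 571.8 for Hsp90ab1, 50.1 for Ahsa1 and 13.9 for Chordc1. Each of the 10 had at least 348 counts in every library. Their intervals rest on the spread between 3 and 4 libraries, which includes counting noise, and the part of that noise was not separated for single genes.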
